A study of Mus musculus with 547 samples.

Results

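EpCAM+ cells from mouse fetal liver explants that were cultured with the MEK inhibitor U0126 were compared with EpCAM+ cells from explants given only the DMSO carrier. The comparison holds 27 cells, 12 control and 15 U0126, of the 70 EpCAM+ explant cells, 82 explant cells and 529 single cells of the series. They were chosen by their labels: an explant cell, the EpCAM+ gate, either U0126 alone or control, and set 3 or 4 in the title. The explants were major liver lobes of E12.5 embryos kept for 2 days on membranes in a medium with fetal bovine serum and EGF, so that both groups carried added EGF. U0126 was given at 10 µM. The control explants of sets 1 and 2 and those treated with 0.5 µM TPPB alone, a protein kinase C agonist, belong to an earlier deposit round, and TPPB plus U0126 shares sets 3 and 4 with the comparison. Single cells were picked after the sort and amplified by Smart-seq2 with ERCC spike-in RNA. The labels give no strain, and they do not say what a set is. Reads were summed over the cells of each set, which gave 2 control and 2 U0126 sums, and values are CPM, read counts scaled to a common library size. No p-value here covers more than the differences from set to set, some of which can be technical.

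U0126 binds the kinases MEK1 and MEK2 and keeps them from activating ERK, the last step of the kinase cascade that carries signals from the EGF receptor through Ras and Raf to the nucleus. Active ERK drives transcription of its own inhibitors, the dual-specificity phosphatases and the Sprouty and Spred proteins, and of immediate early transcription factors such as Egr1. In the fetal liver, hepatoblasts give rise to hepatocytes and cholangiocytes, and EpCAM is a surface protein of biliary and progenitor cells that is used to sort them. U0126 is also known to act as a ligand of the aryl hydrocarbon receptor, a transcription factor that pairs with ARNT and turns on Cyp1a1 and other genes of xenobiotic metabolism.

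Control set 3 held 10 cells with 13737444 reads, control set 4 held 2 cells with 1935026, U0126 set 3 held 5 cells with 6666226 and U0126 set 4 held 10 cells with 9766372. Each cell had between 833747 and 1654966 reads and between 7112 and 10769 detected genes, and ERCC RNA took 1.68 to 8.56% of reads. The authors' putative type was cholangiocyte for 24 cells and hepatoblast/hepatocyte for 1 control and 2 U0126 cells. Markers of both lineages were read in most of these cells. Alb and Afp, the main secreted proteins of the fetal hepatocyte lineage, stood at 2804 CPM or more in all cells but 1. Spp1, a secreted protein of cholangiocytes, reached 10 CPM in 0 of 12 control and 2 of 15 U0126 cells. Krt19 and Sox9, also markers of cholangiocytes, ran from 0 to 609 and from 0 to 559 CPM in the control cells. In the U0126 cells they ran from 0 to 1618 and from 0 to 304 CPM. Epcam itself had reads in 11 of 12 control cells and 15 of 15 U0126 cells.

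The library profiles labelled U0126 set 4 overlap with those of other cells. In 6 of its 10 cells, log expression across 13709 genes correlated at 0.944 to 0.958 with a single cell labelled TPPB plus U0126, each with a different one. Without U0126 set 4 and 1 pair of TPPB plus U0126 cells that correlated at 0.985, the highest of the remaining 1769 pairs of EpCAM+ explant cells reached 0.775 and their median was 0.588. A weighted sum of 2 cells from outside U0126 set 4, fitted over 13513 genes, gave an R² of 0.9701 to 0.991 for 7 of its 10 cells. In each of these 7 the best sum took 0.581 to 0.835 of a TPPB plus U0126 cell and 0.157 to 0.410 of a control set 3 cell. The same fit reached 0.779 to 0.861 for cells 1, 2 and 9 of that set, 0.648 to 0.782 for U0126 set 3 and 0.522 to 0.786 for the 12 control cells. For cells 1, 2 and 9 the best sum also took 0.435, 0.578 and 0.389 of a control set 3 cell. Cells 2 and 9 correlated with that cell at 0.8605 and 0.8228, above the 0.775 of the remaining pairs. Genes detected ran from 9616 to 10769 in U0126 set 4 and from 8370 to 9709 in U0126 set 3. How the libraries labelled U0126 set 4 came to share these profiles was not tested. Results are therefore given for both sets and for U0126 set 3 alone, which has no second set to show its spread. The sum of U0126 set 4 correlated at 0.951 with TPPB plus U0126 set 4 and at 0.927 with control set 3. Its correlation with the sum of U0126 set 3 was 0.808. The fit takes the sums as independent, so p-values and standard errors with both sets do not allow for this sharing. Counts of sums that do not overlap carry the sharing as well.

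**Figure D1:**
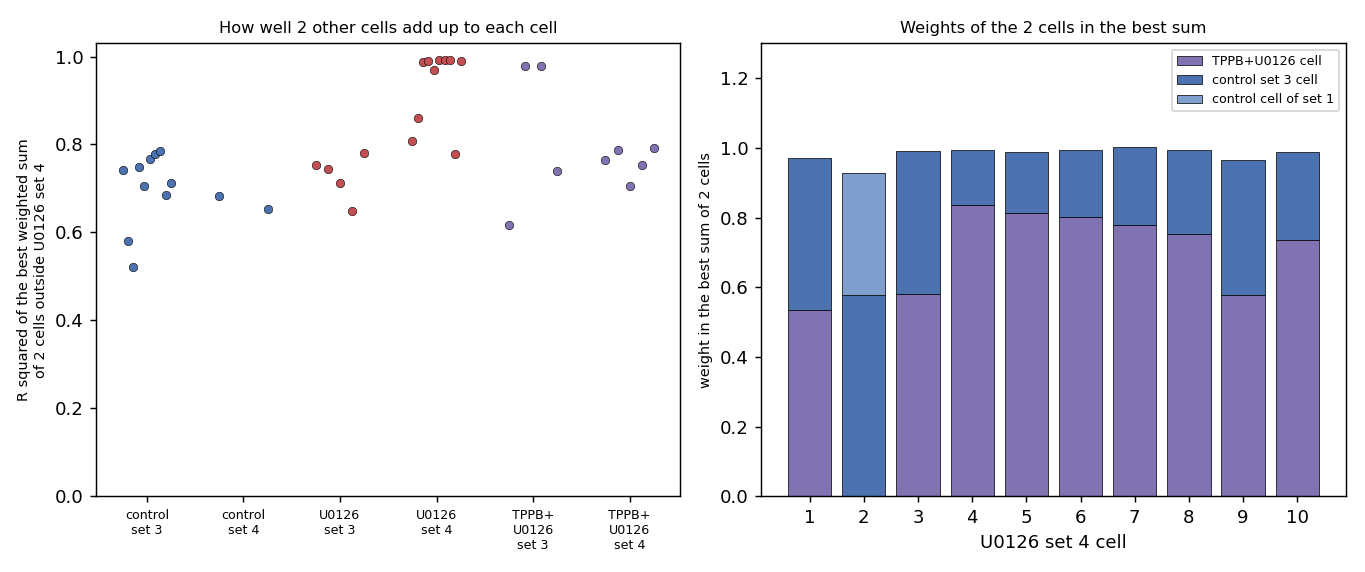
Left, R² of the best weighted sum of 2 cells from outside U0126 set 4, for each control, U0126 and TPPB plus U0126 cell; right, the weights of the 2 cells in the best sums of U0126 set 4. Points are single cells. The 7 cells of U0126 set 4 with R² between 0.9701 and 0.991 stand above all control cells and all U0126 set 3 cells, whose highest value in this fit is 0.786. Cells 1 and 2 of U0126 set 4, at 0.808 and 0.861, also exceed that value.

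Pancreatic islet transcripts also differed by set. Ins1, Ins2, Iapp, Sst, Pyy and Scg2, which encode islet hormones and granule proteins, had reads in all 10 control set 3 cells, and 11 islet genes summed to 44.7 to 237 CPM per cell there. The sum was 9.46 and 16.3 CPM in the 2 control set 4 cells, 11.8 to 46.8 CPM in U0126 set 4 and 0.627 to 1.70 CPM in U0126 set 3. It reached 2.43 CPM at most in the 9 TPPB plus U0126 cells, 1.597 CPM in the 12 controls of sets 1 and 2 and 59.7 CPM in the 22 cells given TPPB alone. Where these reads came from was not tested, and this gene list was made after the values were seen.

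Cell 4 of U0126 set 3 stood apart from the other 26 cells. It had 19.5 CPM of Alb, 154 of Afp, 6773 of Spp1, 1213 of Epcam and 1618 of Krt19, a keratin of bile duct cells. The other 4 cells of its set had 13820 to 51470 CPM of Alb and 1.25 to 2.59 CPM of Spp1. Because it is 1 of 5 cells, biliary results are also given without it.

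None of 13749 tested genes passed an adjusted p of 0.05 for U0126 against control in edgeR's quasi-likelihood test (0.0% in each direction). At an unadjusted p below 0.05, 234 genes were higher (1.7%) and 54 lower (0.393%), and DESeq2 called 23 genes, all higher. The 2 U0126 sums lay above both control sums for 2456 genes (17.9%) and below them for 1313 (9.55%). With U0126 set 3 alone, again 0 genes were called, and 280 of 15081 genes were higher (1.86%) and 303 lower (2.01%) at an unadjusted p below 0.05. The median log2 difference over all genes was 0.16 with both sets and 0.00 with U0126 set 3 alone. With 2 sums against 2, an exact permutation test of a single gene cannot go below p = 0.333. Without control set 3 the count of calls was 459, resting on the single sum of 2 control set 4 cells.

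The gene of smallest p was Cyp1a1, a target of the aryl hydrocarbon receptor. It encodes a cytochrome P450 that oxidises planar aromatic compounds and is the standard readout of this receptor. Its level was 1.61 and 0 CPM in the control sums of sets 3 and 4 and 1025 and 1323 CPM in the U0126 sums. The control mean was 0.806 ± 1.14 CPM and the U0126 mean 1174 ± 211 CPM (SD, n = 2 sums each). The groups did not overlap, and the log2 difference was 9.93 (SE 0.98), with an adjusted p of 0.147 in edgeR and a range of 3.5e-47 to 1 over 17 alternative settings. Against U0126 set 3 alone the log2 difference was 9.74. Among single cells, 1 of 12 controls had Cyp1a1 reads, at 13.3 CPM. The 5 U0126 set 3 cells had 0.862, 3939, 64.9, 0 and 462 CPM, and the cell at 0 was the biliary cell 4. In U0126 set 4, 9 of 10 cells had reads, with a median of 1087 CPM and a highest value of 2972. Cells with no reads and cells with over 10 CPM thus stood side by side in both U0126 sets.

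Cyp1a1 in U0126 set 4 followed the TPPB plus U0126 cell that shared each profile. Cell 5 had 2972 CPM where its matching TPPB plus U0126 cell had 3799, cell 7 had 1504 against 1897, and cell 6 had 1292 against 1634. Cell 4 had 0 CPM of Cyp1a1 and its match 1.58. Cells 1, 2 and 9, which no sum of 2 cells described to an R² of 0.9, had 2441, 2157 and 672 CPM. Their best sums also took part of a control set 3 cell, so they are not free of shared profiles. All 9 cells given TPPB plus U0126 had Cyp1a1 reads, at 1.58 to 3799 CPM, and none of the 12 control cells of sets 1 and 2 or of the 22 cells given TPPB alone had any.

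Cyp1a1 lies on chromosome 9 at 57687928 to 57703824, plus strand, and Cyp1b1 on chromosome 17 at 79701537 to 79715061, minus strand (GRCm38, GENCODE). The 250 bases before the RefSeq start of each gene are shown because these 2 enzymes are the textbook targets of the receptor and share its core letters. The Cyp1a1 window is chr9:57697363-57697612 on the plus strand and the Cyp1b1 window chr17:79715062-79715311 on the minus strand, both in GRCm38.p6 and written 5′ to 3′ on the gene's strand. Capitals mark the letters GCGTG, or CACGC where they lie on the opposite strand, the core of the element that the receptor and ARNT bind.
Cyp1a1: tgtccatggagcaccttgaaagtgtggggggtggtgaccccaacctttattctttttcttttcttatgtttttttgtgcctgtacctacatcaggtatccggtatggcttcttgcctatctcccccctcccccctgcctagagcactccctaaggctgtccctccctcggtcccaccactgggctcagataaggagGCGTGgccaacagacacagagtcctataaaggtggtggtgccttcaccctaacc
Cyp1b1: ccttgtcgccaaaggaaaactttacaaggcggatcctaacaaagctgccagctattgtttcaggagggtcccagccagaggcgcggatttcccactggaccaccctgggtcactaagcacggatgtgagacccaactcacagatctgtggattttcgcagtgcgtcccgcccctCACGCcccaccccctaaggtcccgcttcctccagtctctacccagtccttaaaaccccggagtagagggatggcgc
The letters begin 54 bases before the start in Cyp1a1 and 76 bases before it in Cyp1b1, and each window holds them once. They are common: 9250 of 32851 windows of this length hold them on either strand (28.2%), and so do 5 of the 10 genes of the aryl hydrocarbon receptor list that have a window. Known elements further upstream lie outside these windows, and no other motif was searched.

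Of 12 genes on the receptor's list, 10 were tested. At an unadjusted p below 0.05, 4 were higher, against 1.7% of all genes: Cyp1a1, Cyp1b1, Nqo1 and Nfe2l2. None was lower, and 5 of 10 had both U0126 sums above both control sums, against 17.9% of all genes. The sum of U0126 set 3 alone lay above both control sums for 6 of 10 and below them for 4 of 10, where over all genes these shares were 33.3% and 21.2%. The median log2 difference of the list was 1.77, beside 0.16 over all genes, and 1.33 with U0126 set 3 alone. Cyp1b1, a cytochrome P450 that metabolises oestrogens and polycyclic compounds, had no reads in either control sum. It stood at 6.77 and 170 CPM in the U0126 sums, and the mean of these sums was at least 90.5-fold higher than the mean of what 3 reads, the most that a count of 0 allows, would give in the 2 control sums. This bound rests on U0126 set 4: for U0126 set 3 alone Cyp1b1 was at least 6.93-fold higher. In U0126 set 3 the Cyp1b1 reads came from cells 3 and 4, at 37.6 and 1.70 CPM, while 8 of 10 cells of U0126 set 4 had them, up to 360 CPM.

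Nqo1, a quinone reductase under both the receptor and Nrf2, was at 2.34 and 17.3 CPM in the control sums and 31.2 and 150 in the U0126 sums. Its log2 difference was 3.29 (SE 1.13), and 2 of 12 control cells and 11 of 15 U0126 cells had Nqo1 reads. Nfe2l2, which encodes Nrf2, the transcription factor of the oxidative stress response, was at 127 and 106 CPM in the controls and 221 and 241 with U0126, a log2 difference of 0.99 (SE 0.38). All 5 cells of U0126 set 3 had 128 CPM of Nfe2l2 or more, and the control cells ranged from 0 to 272. Cyp1a2, the neighbouring hepatic P450, was at 0 and 11.55 CPM in the controls and 60.5 and 0.109 CPM with U0126, so its sums overlapped. Gsta1, a glutathione transferase, was at 1.83 and 0 CPM in the controls and 12.2 and 7.22 with U0126. The receptor and its own regulators did not share this pattern. Ahr was at 13.8 and 28.9 CPM in the controls and 13.7 and 13.7 with U0126, and Tiparp, an ADP-ribosylating feedback inhibitor of the receptor, at 42.5 and 122 against 37.7 and 105. Arnt, the partner of the receptor, was at 70.2 and 66.4 against 35.7 and 68.4 CPM. Ahrr, the receptor's repressor, stayed at or below 1.86 CPM in all 4 sums.

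**Figure D2:**
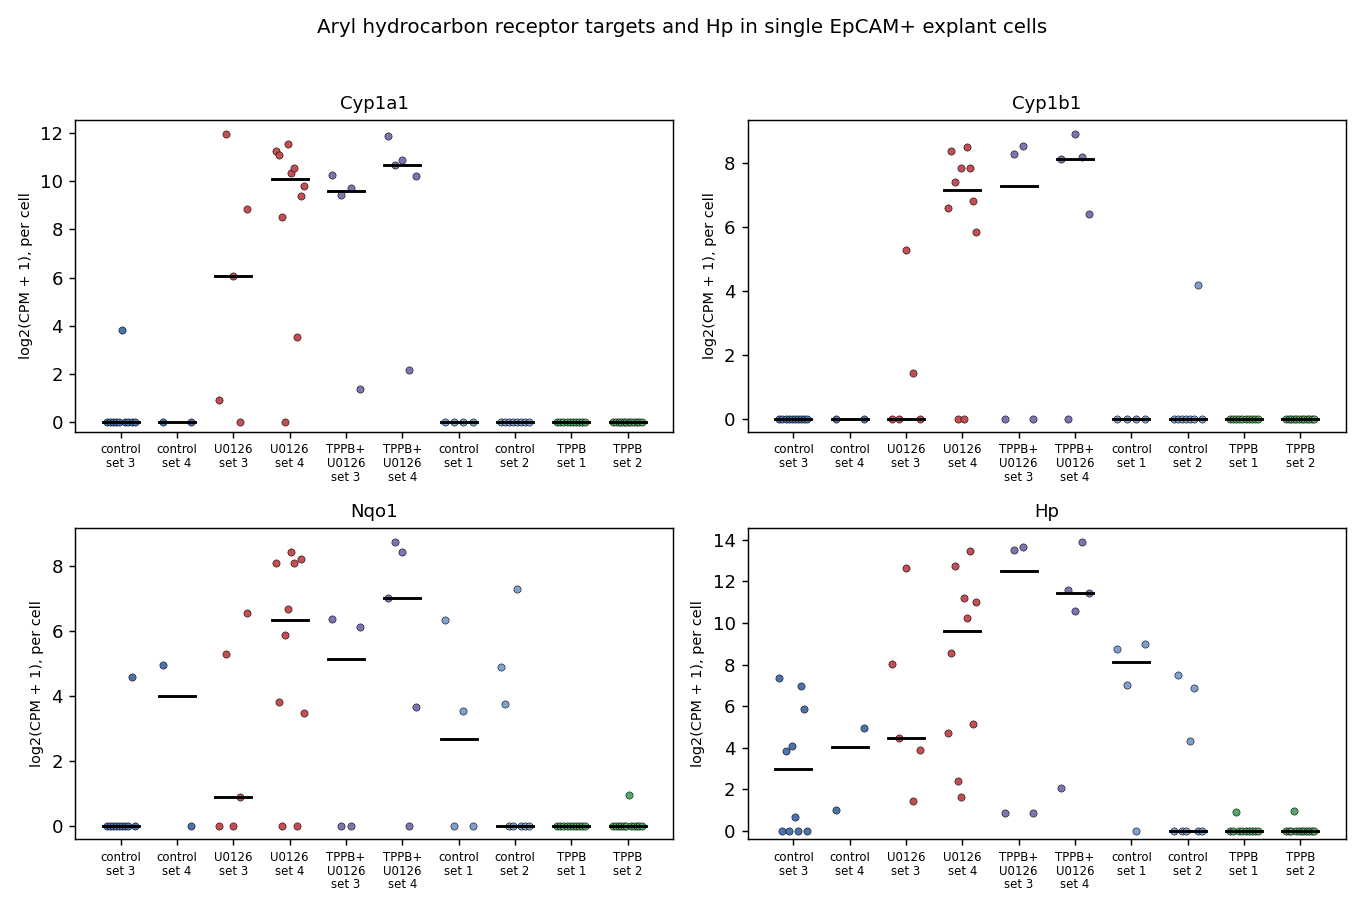
Levels of Cyp1a1, Cyp1b1 and Nqo1 of the aryl hydrocarbon receptor list, and of Hp, which is not on that list, in single cells. Values are CPM on a log scale after adding 1. Each point is a cell and columns are the sets. Cyp1a1 was seen in 1 of 12 control cells and in 13 of 15 U0126 cells, with values between 0.862 and 3939 CPM in the cells that had reads.

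Among the other genes with the smallest p on the higher side, none was called in edgeR. DESeq2, run on the same sums, called Hp, Pxdn, Adamts1, Sfxn3, Ier3, Htatip2 and Tmem71, as it did Cyp1a1. It did not call Cyp1b1 or S1pr2. Hp, haptoglobin, an acute-phase plasma protein of hepatocytes, was at 38.6 and 16.7 CPM in the control sums and 1171 and 2593 in the U0126 sums, a log2 difference of 6.06 (SE 0.98, adjusted p = 0.745). Within U0126 set 3 the cells had 261, 21.1, 6493, 1.70 and 13.8 CPM of Hp, so that 1 cell carried most of the sum. Control cells had at most 161 CPM of Hp, and the control sums of sets 1 and 2 had 331 and 42.4. Hp was at 5602 and 5217 CPM in the TPPB plus U0126 sums.

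Htatip2, an oxidoreductase also known as TIP30, showed the difference in each cell of U0126 set 3. Its sums were at 9.37 and 15.6 CPM in the controls and 93.4 and 47.7 with U0126, a log2 difference of 2.51 (SE 0.61). All 5 cells of U0126 set 3 had 36.2 to 159 CPM of Htatip2, above all 12 control cells, whose highest was 30.7, but not above all 12 control cells of sets 1 and 2, whose highest was 50.5. Of 13749 genes, 5 (0.0364%) had all cells of U0126 set 3 above all control cells, and 5 (0.0364%) had them below. Cells of 1 set are not replicates, so these counts only describe the cells. Besides Htatip2, the genes above were Ddah1, Spp1, Tspan7 and D130020L05Rik. For Spp1 and D130020L05Rik the lowest cell of U0126 set 3 had 1.25 and 0.855 CPM. The highest control cell had 1.02 and 0.716 CPM, so these 2 separations lie near the floor. The cells of U0126 set 4 had 7.33 to 86.8 CPM of Htatip2, which overlapped the controls.

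Ier3, an early response gene linked to survival signalling and itself a known target of ERK, was at 41.0 and 9.82 CPM in the controls and 142 and 379 with U0126 (log2 difference 3.31, SE 0.78). S1pr2, a receptor for sphingosine 1-phosphate and conjugated bile acids, was at 13.6 and 19.1 CPM against 80.3 and 72.4. Both groups were tight for S1pr2, and its log2 difference was 2.23 (SE 0.56). Adamts1, a secreted metalloproteinase, was at 36.0 and 23.7 CPM against 254 and 139, and in U0126 set 3 cells 3 and 4 had 535 and 832 CPM of Adamts1. Pxdn, a peroxidase of the basement membrane, was at 0.513 and 0 CPM in the controls and 21.5 and 33.2 with U0126. Sfxn3, a mitochondrial transporter, was at 1.17 and 0 CPM against 26.5 and 18.4. In U0126 set 3, cell 4 was the only one with Sfxn3 reads and carried nearly all Pxdn reads, at 153 and 123 CPM. Tmem71 had no reads in the controls and 14.1 and 16.2 CPM with U0126, at least 15.52-fold higher, and 1 cell of U0126 set 3 held all of its reads.

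The controls of sets 1 and 2, from the earlier round, had several of the genes above at levels that the controls of sets 3 and 4 did not reach. Their Ier3 sums were 182 and 223 CPM, inside the range of the U0126 sums. S1pr2 was at 67.0 and 27.7 CPM there, Pxdn at 28.5 and 7.96, Sfxn3 at 19.1 and 6.24 and Tmem71 at 8.35 and 13.98. Nfe2l2 was at 331 and 183 CPM and Nqo1 at 29.0 and 26.6. Adamts1, at 4.66 and 7.10 CPM, and Htatip2, at 18.4 and 17.8, were below both U0126 sums in those controls too. The rounds differ in sets and deposit, and this difference between controls was not tested.

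On the lower side the smallest p values were larger, from 0.0154 unadjusted for Itm2a, and none was called. Igfbp3, a secreted carrier of insulin-like growth factors, was at 365 and 1296 CPM in the controls and 3.53 and 125 with U0126, a log2 difference of -3.69 (SE 1.26). It had reads in 8 of 12 control cells and in 1 of 5 cells of U0126 set 3, and in 9 of 10 of U0126 set 4. Without U0126 set 4 its log2 difference was -7.87. The control sums of sets 1 and 2 had 478 and 342 CPM of Igfbp3, both above the U0126 sums.

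Itm2a, a membrane protein, was at 31.1 and 119 CPM in the controls and 9.85 and 19.5 with U0126. Ifngr1, a chain of the interferon gamma receptor, was at 225 and 258 CPM against 85.8 and 161, and Aqp8, a water channel of hepatocytes, at 222 and 726 against 108 and 195. Akr1c13, an aldo-keto reductase, was at 159 and 219 CPM against 102 and 99.6. Gga2, a sorting adaptor of the Golgi, was at 102 and 615 CPM in the controls and 94.0 and 94.8 with U0126, so that its difference came from control set 4. The same held for Rarres1 (7.62 and 149 CPM against 4.12 and 2.41), Clec2h (0.513 and 35.8 against 0.147 and 0.219), Fstl3 (7.62 and 66.4 against 2.79 and 3.94) and Calb1 (1.25 and 21.9 against 0 and 0). For these 5 genes the 2 cells of control set 4 held the higher control level.

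The ERK feedback inhibitors, the most direct readout of MEK inhibition in RNA, had mostly negative log2 differences, without a call. Of 14 listed genes 13 were tested, 11 had a negative log2 difference beside 5600 of all 13749 genes, 0 passed an unadjusted p of 0.05, and the median was -0.70 against 0.16 over all genes. With U0126 set 3 alone the median was -1.07. Dusp6, the phosphatase that removes the activating phosphates from ERK in the cytoplasm, was at 278 and 544 CPM in the controls and 111 and 333 with U0126. The sums overlapped, the log2 difference was -0.89 (SE 0.61), and with U0126 set 3 alone it was -1.89 at an unadjusted p of 0.0221. All 12 control cells had Dusp6, at 34.2 to 881 CPM, and the cells of U0126 set 3 had 325, 101, 17.9, 1.70 and 123. In U0126 set 4 Dusp6 ran from 40.1 to 630 CPM, inside the control range. Dusp6 reads were thus present in all 15 cells given U0126.

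The summed level of the list was lower in both U0126 sums than in both control sums, but single cells overlapped. The sums of sets 3 and 4 were 999.7 and 1578 CPM in the controls and 681 and 941 with U0126, and the controls of sets 1 and 2 had 1043 and 819. Per cell, the median of the summed list was 797 CPM in the 12 control cells and 845 in the 15 U0126 cells. It was 621 in control set 3, 1409 in control set 4, 549 in U0126 set 3 and 922.5 in U0126 set 4.

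Spry2, a Sprouty inhibitor of receptor tyrosine kinase signalling, was at 99.2 and 94.7 CPM in the controls and 64.3 and 55.4 with U0126, with no overlap. Its log2 difference was -0.70 (SE 0.47). Among cells, Spry2 in U0126 set 3 ran from 0.855 to 259 CPM and in controls from 0 to 186, so single cells overlapped fully. Spry4, another Sprouty, was at 8.20 and 38.7 CPM against 5.44 and 7.65 (log2 difference -1.83, SE 1.12). Dusp2, a nuclear ERK phosphatase, was at 63.6 and 82.6 CPM against 3.53 and 53.2, and Errfi1, which binds and inhibits the EGF receptor, at 394 and 737 against 412 and 358. Spred2, which blocks Raf activation, was at 11.3 and 9.82 CPM against 1.47 and 10.1. The sign of the log2 difference of these 6 genes was negative under every alternative run. The alternatives reused the same cells and were not run for the other genes of the list, so this sign is no separate support.

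For the remaining feedback genes only levels are given. Dusp4 was at 40.9 and 2.89 CPM in the controls and 1.47 and 41.8 with U0126, and Dusp5, both nuclear phosphatases of ERK, at 67.2 and 0 against 16.3 and 51.9. Spry1 was at 13.4 and 8.08 CPM against 35.7 and 7.22, and Spred1 at 14.6 and 41.6 against 17.9 and 17.3. Dusp7 was at 6.30 and 18.48 CPM against 10.7 and 4.37. Il17rd and Spred3 stayed at or below 1.76 CPM in all 4 sums.

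Immediate early genes, which respond to ERK within minutes, split by set. Of 18 tested, 0 passed an unadjusted p of 0.05, and the median was -0.04, while with U0126 set 3 alone it was -0.76. Egr1, a zinc finger factor induced through ERK and Elk1, was at 249 and 370 CPM in the controls and 53.7 and 200 with U0126 (log2 difference -1.29, SE 0.78). The Egr1 sums did not overlap, but the control cells ran from 5.71 to 793 CPM and the cells of U0126 set 3 from 0 to 190. Junb, an AP-1 subunit, was at 542 and 863 CPM against 224 and 470, a log2 difference of -1.02 (SE 0.46), and -1.65 with U0126 set 3 alone. Fos, the partner of Jun in AP-1, was at 328 and 40.4 CPM in the controls and 26.03 and 240 with U0126. Only 1 of 5 cells of U0126 set 3 had Fos reads, while 11 of 12 control cells and 10 of 10 cells of U0126 set 4 did. Atf3, a stress-induced factor, was at 262 and 0 CPM against 0.883 and 145, so that control set 4 and U0126 set 3 were the low sums. Jun was at 249 and 21.9 CPM against 186 and 213, and Myc, a growth regulator, at 199 and 0 against 73.2 and 109. Ier2 was at 226 and 297 CPM against 248 and 277.

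**Figure D3:**
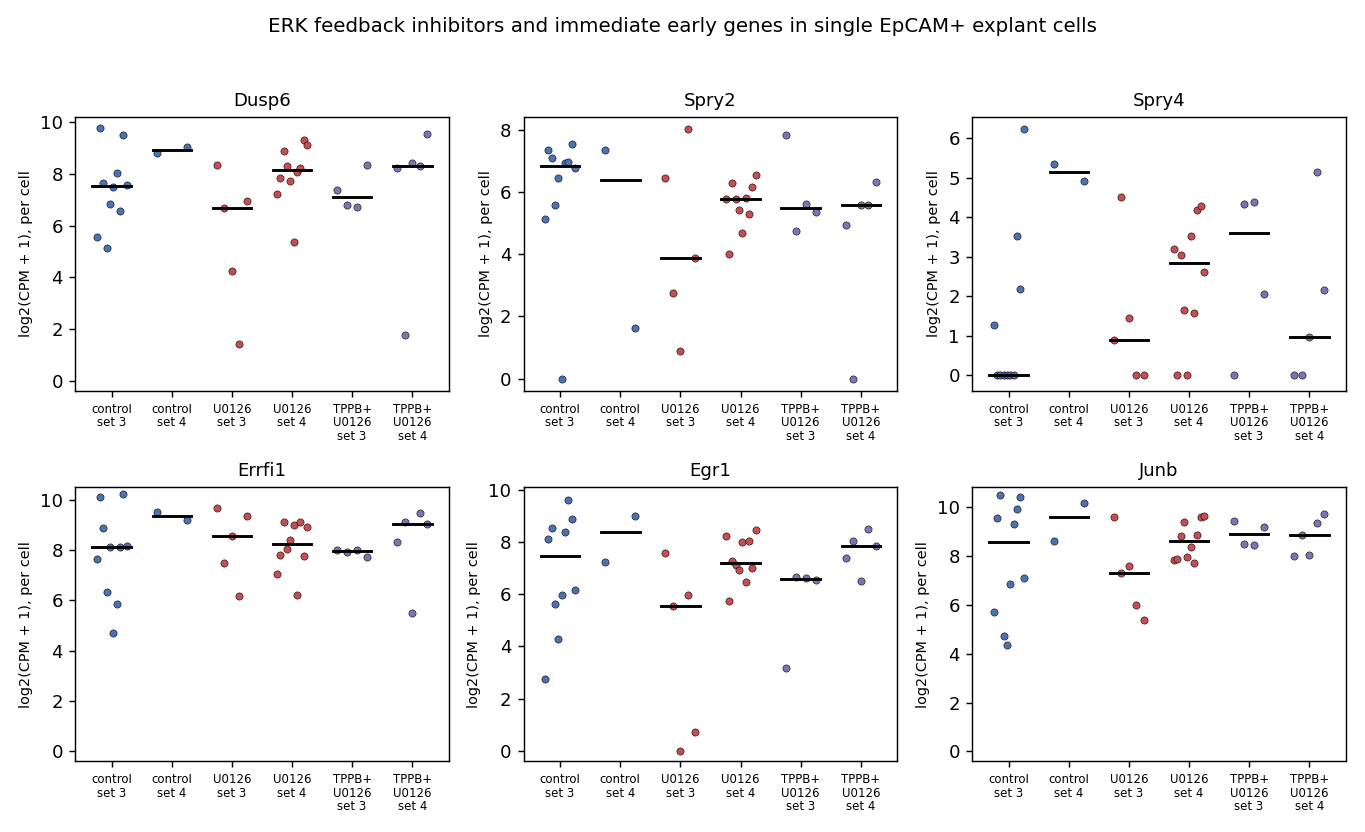
Levels of ERK feedback and immediate early genes in single cells, in CPM on a log scale after adding 1; each point is a cell and columns are the sets. Dusp6 ran from 34.2 to 881 CPM in the 12 control cells and from 1.70 to 325 CPM in U0126 set 3, with overlap between the groups.

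The ERK target list did not move one way. Of 15 tested, 7 had a negative and 7 a positive log2 difference. At an unadjusted p below 0.05, 2 were higher, Ier3 and Emp1, against 1.7% of all genes. Emp1, an epithelial membrane protein, had no reads in the controls or in U0126 set 3 and 7.54 CPM in U0126 set 4. The Ets factors induced by FGF and EGF signals were low and overlapping in part: Etv4 was at 37.1 and 0 CPM in the controls and 7.35 and 39.0 with U0126, and Etv5 at 16.4 and 0 against 50.3 and 25.9. Ccnd1, cyclin D1, was at 50.4 and 88.3 CPM against 98.7 and 34.4, and Phlda1 at 29.6 and 53.7 against 21.5 and 58.3.

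Genes upstream in the pathway were present in both groups. Of the 18 cascade genes, from Grb2 to the Rsk kinases, 0 passed an unadjusted p of 0.05, and the median log2 difference was 0.02. Per length, Map2k1, which encodes MEK1, had a mean of 125.8 TPM in control cells, 114 in U0126 set 3 and 107 in U0126 set 4, and Map2k2, which encodes MEK2, 209, 188 and 174 TPM. Mapk3, which encodes ERK1, had 32.2, 23.9 and 47.0 TPM. On this scale both MEK transcripts stood above Mapk3 in all 3 groups of cells.

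Of 8 tested EGF family genes 0 passed an unadjusted p of 0.05 and the median was -0.08. Egfr, the receptor for the EGF in the medium, was at 48.5 and 19.1 CPM in the controls and 8.97 and 30.1 with U0126, and Erbb2, its partner, at 11.9 and 0 against 39.3 and 15.7. The ligand genes Hbegf (51.3 and 32.3 CPM against 27.1 and 50.7) and Tgfa (34.7 and 27.7 against 9.41 and 50.4) overlapped between the groups.

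Hepatoblast and hepatocyte genes were abundant in both groups. Of 18 tested, 0 passed an unadjusted p of 0.05 in either direction, and the median log2 difference was -0.44. Alb, albumin, was at 20707 and 29918 CPM in the controls and 25507 and 21484 with U0126, a log2 difference of -0.11 (SE 0.92). Afp, alpha-fetoprotein, was at 59056 and 91371 CPM against 60737 and 72010 (log2 difference -0.18, SE 0.93). Dlk1, the surface protein of hepatoblasts, was at 340 and 533 CPM in the controls and 275 and 242 with U0126, with no overlap and a log2 difference of -0.75 (SE 0.46). With standard errors of 0.92 and 0.93 log2 units, changes of that size were not detectable for Alb and Afp.

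At an unadjusted p below 0.05, 4 of 15 early biliary genes were higher, among them Krt19, Spp1 and Spon1, against 1.7% of all genes. The median log2 difference of the 15 was 0.90. Without cell 4 of U0126 set 3, 0 of 15 were higher at that p and the median was 0.19, beside 0.12 over all genes. Spp1, osteopontin, showed this most: its control sums were 0.22 and 0.577 CPM and its U0126 sums 1175 and 10.497, and cell 4 had 6773 CPM. The other 4 cells of U0126 set 3 had 1.25 to 2.59 CPM of Spp1, and 2 of 10 cells of U0126 set 4 had any. All 12 control cells of sets 1 and 2 had Spp1 reads, and their sums were at 6497 and 3.55 CPM. Krt19 was at 138 and 25.4 CPM in the controls and 337 and 181 with U0126 (log2 difference 1.65, SE 0.69), and cell 4 had 1618 CPM. The biliary factor Sox9 was at 104 and 125.9 CPM in the controls and 64.1 and 114 with U0126. Epcam was at 165 and 134 CPM against 301 and 158. Krt8 and Krt18, the keratins of all liver epithelium, were at 624 CPM or more and 771 CPM or more in the 4 sums.

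Of 15 mature cholangiocyte genes, 4 were higher at an unadjusted p below 0.05 (Bicc1, Cldn7, Muc1 and Pkhd1) and 0 lower. Over all genes, 1.7% were higher and 0.393% lower. Without cell 4, 2 were higher, beside 142 of all 13719 genes. Cldn7, a claudin of tight junctions, was at 32.2 and 2.31 CPM in the controls and 374 and 35.8 with U0126. It had reads in all 5 cells of U0126 set 3, at 33.6, 556, 3.42, 1137 and 183 CPM, and in 6 of 12 control cells, up to 154. Cftr and Sctr, the chloride channel and secretin receptor of mature ducts, had no reads in any of the 4 sums.

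**Figure D4:**
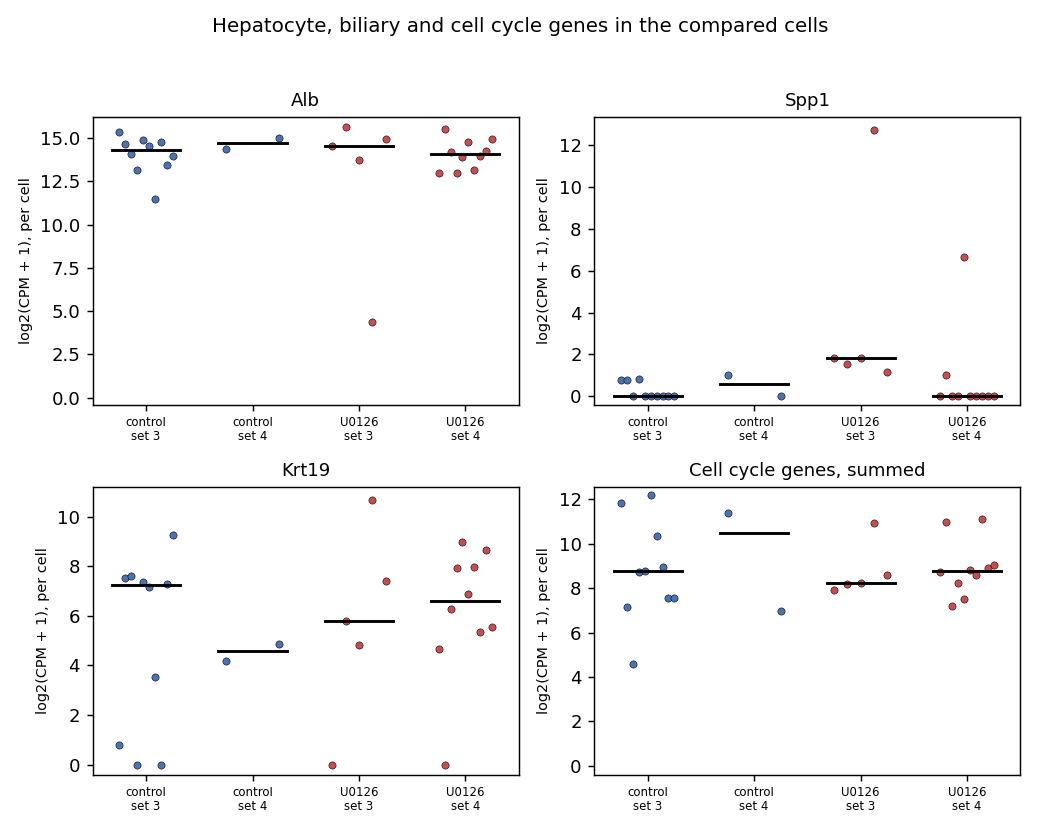
Levels of hepatocyte and biliary marker genes in single cells, in CPM on a log scale after adding 1; each point is a cell and columns are the sets. Cell 4 of U0126 set 3 has 19.5 CPM of Alb and 6773 CPM of Spp1, while the other 26 cells have at least 2804 CPM of Alb and at most 99.5 CPM of Spp1.

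Cell cycle genes had mostly negative log2 differences, with none called. Of 20 tested, 18 had a negative log2 difference beside 5600 of all 13749 genes. At an unadjusted p below 0.05, 2 were lower (Tyms and Pcna), against 0.393% of all genes. Both U0126 sums lay below both control sums for 9 (9.55% of all genes) and above them for 0 (17.9%). The median log2 difference was -1.18. With U0126 set 3 alone 9 of 20 were lower at that p, against 2.01% of all genes, and the median was -2.76, and without cell 4 the median over both sets was -1.40. Tyms, thymidylate synthase, was at 51.6 and 98.7 CPM in the controls and 21.2 and 38.6 with U0126. Pcna, the sliding clamp of DNA replication, was at 69.8 and 191 CPM against 48.4 and 49.1. Top2a, topoisomerase II alpha of dividing cells, was at 120 and 96.4 CPM against 5.88 and 50.1. Mki67, the Ki-67 antigen, was at 25.5 and 0 CPM against 4.71 and 16.2, and overlapped. A few cells set these sums. The 20 genes together ran from 23.3 to 4632 CPM in control set 3, with a median of 430, and from 239 to 1975 CPM in U0126 set 3, with a median of 300. The 2 control set 4 cells had 124 and 2707 CPM, and U0126 set 4 ran from 147.5 to 2203 CPM with a median of 435. The summed list was at 1274 and 1605 CPM in the control sums and 591 and 784 in the U0126 sums, and the control sums of sets 1 and 2, at 412 and 828, lay on either side of the latter.

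Among the 13 G1 regulators, 1 was higher and 1 lower at an unadjusted p below 0.05, Ccnd3 and Cdkn1a. Over all genes these shares were 1.7% and 0.393%. Cdkn1a, the p21 inhibitor of cyclin-dependent kinases, was at 154 and 335 CPM in the controls and 17.503 and 99.6 with U0126, a log2 difference of -2.06 (SE 0.83). All 5 cells of U0126 set 3 had 53.8 CPM or less of Cdkn1a, while the control cells ran from 0 to 972. Cdk4, its target kinase, was at 558 and 640 CPM against 519 and 536.

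Counts past an unadjusted p of 0.05 in the other lists stand beside 1.7% higher and 0.393% lower over all genes. Of 12 Notch pathway genes 3 were higher (Jag1, Hey1 and Nrarp), of 12 YAP target genes 2 (Ctgf and Amotl2) and of 17 junction genes 4 (Cldn3, Cldn6, Cldn7 and Gja1), and none of these lists had a lower one. Without cell 4, the counts were 1, 0 and 1, beside 142 of all 13719 genes. Ctgf, a secreted matricellular protein, was at 10.99 and 0 CPM in the controls and 97.2 and 82.7 with U0126, and in U0126 set 3 it came from cell 4 alone, at 561 CPM. Jag1, a Notch ligand of the bile duct niche, was at 3.88 and 0.577 CPM against 45.2 and 35.6. Notch2, the receptor most tied to bile duct formation, was at 61.4 and 151 CPM against 91.8 and 91.6. The lists on cholesterol synthesis, glycolysis, the endoplasmic reticulum stress response and heat shock had 0 genes at that p, with medians of -0.42, -0.36, -0.26 and -0.35. In the glycolysis list, 13 of 15 genes had a negative log2 difference, beside 5600 of all 13749, and 7 of 15 had both U0126 sums below both controls, beside 9.55% of all genes.

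**Figure D5:**
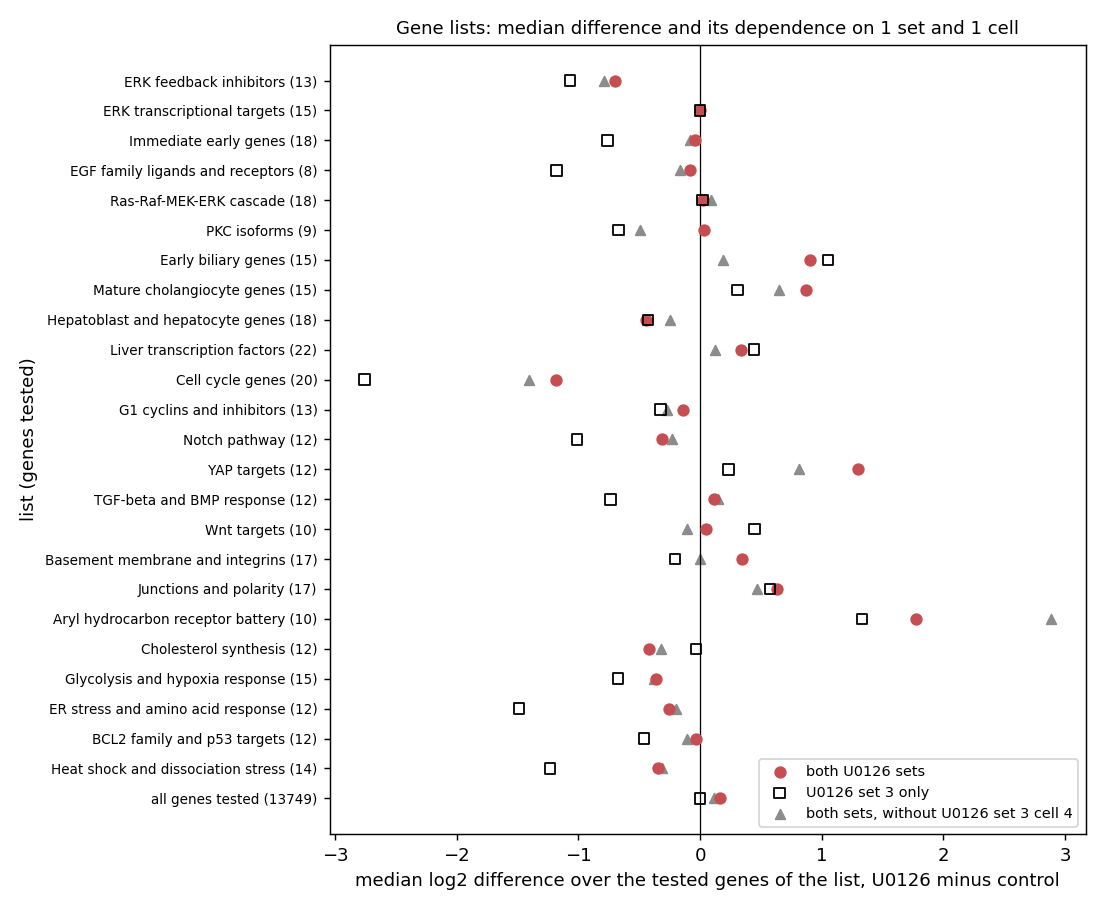
Median log2 difference of each gene list for U0126 against control, with both U0126 sets and with U0126 set 3 alone. The aryl hydrocarbon receptor list is at 1.77 and 1.33, the ERK feedback inhibitors at -0.70 and -1.07 and the cell cycle genes at -1.18 and -2.76.

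Markers of other liver cells were low in both groups. Of the 9 erythroid markers 2 had no reads in any of the 27 cells (Klf1 and Slc4a1), and the list summed to 23.1 and 10.97 CPM in the controls and 5.74 and 13.1 with U0126. Endothelial markers summed to at most 1.64 CPM, with 5 of 7 at 0, among them Kdr and Cdh5. Of 11 markers of other blood cells 4 were at 0, and they summed to 47.3 and 52.0 CPM in the controls and 71.6 and 70.6 with U0126. Stellate and mesenchymal markers, 3 of 10 at 0, summed to 217 and 0.577 against 79.4 and 382 CPM, and the mesothelial markers, 2 of 6 at 0, to 140 and 25.4 against 345 and 191. Krt19 made up most of the mesothelial sum. Their part in the results above was not tested.

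TPPB, tested in the earlier round against its own controls, gave the following values. With it 11 genes rose (0.08%) and 260 fell (1.89%) at an adjusted p below 0.05 in edgeR. Of the 18 hepatoblast and hepatocyte genes, 15 fell with TPPB and 0 were called with U0126, with medians of -8.45 and -0.44. Alb was at 135 and 20.9 CPM with TPPB and 54617 and 11846 in its controls. Cyp1a1 had no reads with TPPB or in its controls, and Nqo1 fell with TPPB (log2 difference -9.33) where U0126 gave 3.29. The cell cycle median was 2.08 with TPPB, and 0 of 20 were called. TPPB and U0126 were given at different doses, in different rounds and against different controls, so these values stand side by side and their difference was not tested. Where both agents were given, Alb was at 9495 and 21498 CPM and Cyp1a1 at 740 and 1961, and that group has the controls of sets 3 and 4 in common with U0126.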

How the data were processed

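Single-cell RNA-seq reads had been aligned and counted by the submitters, whose processing notes name TopHat2 2.1.0, Bowtie2, HTSeq 0.6.0 and the GRCm38/mm10 build. The deposited values are raw read counts per gene, with no normalization by the authors. Gene lengths deposited by the authors, a value of another kind, served only for TPM of the cascade genes. The other 459 columns of the tables, which hold other cells, were not used. Spike-in rows entered neither library sizes nor tests.

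Counts were summed per group and set, because cells are not replicates, and 10 sums of EpCAM+ explants were fitted together in edgeR 4.0.16 (R 4.3.3), with TMM normalization, filterByExpr at a minimum count of 10, the quasi-likelihood test and Benjamini-Hochberg adjustment over all tested genes, called below 0.05. The fit takes the sums as independent, and the simulated counts on which the steps were tested were drawn that way too. That test therefore cannot show how the steps behave where sums share profiles. The 4 sums compared held 1935026 to 13737444 reads. The protocol has no molecular identifiers, so the floor of 3 reads used where a sum had none covers counting error only. Strand use in counting is not given in the sources used here, so reads of overlapping genes cannot be told apart.

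The members and gene lists were chosen with earlier results of these data known. Named genes were the called ones whose sums did not overlap and whose higher group had a mean of 10 CPM or more or, since there were none, the 10 of smallest p in each direction at that mean, all members of the ERK, immediate early, EGF and aryl hydrocarbon receptor lists, 2 genes of highest mean from every other list and 7 markers. Genes of other lists named beside their counts were chosen after their values were seen, as were the islet list and the 5 genes whose cells did not overlap.

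Alternatives were DESeq2 1.42.0, its size factors, no filter, a replicate block, other choices of sums and controls, annotated cholangiocytes only, limma 3.58.1 on cells of equal weight, and each set left out. Positions are from GENCODE M21 and promoter windows from RefSeq, both on GRCm38, where 10 of 12 genes of the aryl hydrocarbon receptor list matched a window. Python 3.11.15 was used for values per cell and figures.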

Additional observations from a re-analysis of the deposited data

Results flagged for a closer look

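A total of 24 pairs of a group and a measure were looked at for a single cell far from the rest, and 2 were found. Chance alone gives about 1 in 20. In U0126 set 3, the summed log2(CPM + 1) of the hepatoblast and hepatocyte genes was 59.6 in cell 4, and the nearest other cell had 181. The gap made up 0.934 of the group's range. This is the cell with 6773 CPM of Spp1 and 19.5 CPM of Alb described above, and the results on biliary genes are given there with and without it. In U0126 set 4, cell 3 had 833747 reads, the lowest of its group, with 935968 in the nearest other cell and a gap of 0.476 of the range. This cell is among the 7 whose profile was described by a sum of a TPPB plus U0126 cell and a control set 3 cell.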

How the results depend on the processing

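The count of genes called for U0126 against control was 0, and it stayed at 0 with DESeq2 size factors in edgeR, with only the 4 or only the 6 sums of sets 3 and 4, with annotated cholangiocytes only, with limma on cells of equal weight, without cell 4 of U0126 set 3 and in both added fits without U0126 set 4. It was 23 in DESeq2, 86 with no filter on low counts and 1 with the controls of sets 1 to 4 together. Leaving out 1 set at a time gave 0 to 459 calls, the highest without control set 3, and the cause was not tested. For TPPB the count of 271 became 990 in DESeq2 and 856 with no filter, and 181 to 257 with 1 set left out.

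Same-numbered sets did not deviate together (r = -0.11 over 8460 genes for U0126, 0.04 for TPPB). These values cannot decide whether the numbers pair the samples, because the labels do not say what a set is. For U0126, some cells also share profiles with control cells of another set, so the correlation does not measure pairing alone. With a replicate block 0 genes were called for U0126 and 234 for TPPB. The crossed pairing, added after seeing the data as were the fits without cell 4 and without U0126 set 4, called 1 gene for U0126.

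Of 608 log2 differences of 36 genes under the alternatives, 574 kept their direction and side of the threshold, 33 passed it and 1 reversed: Spp1 was at -1.45 with the controls of sets 1 to 4 together. The alternatives reused the same cells, and many of these genes were chosen by their small p in the main fit. Most settings called no gene, so staying below the threshold was nearly fixed and these counts are no separate support. After thinning to 833747 reads per cell, all 21 shares of cells with reads stayed inside the binomial interval of the unthinned share. That interval is wide for so few cells, so this check could hardly have come out otherwise. Control set 4, with 2 cells, limits every comparison here.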

Other observations

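A list of 11 pancreatic islet genes, made after the values were seen, was counted in every set. In control set 3, Ins2 had reads in 10 of 10 cells with a median of 24.02 CPM, Ins1 a median of 18.2, Sst 15.6, Iapp 6.41 and Pyy 5.54. The 11 genes together had 1510 reads in control set 3, 25 in control set 4, 7 in U0126 set 3 and 287 in U0126 set 4. Gcg, the glucagon gene, had a different distribution: it had reads in 2 of 10 cells of control set 3, at 2.25 CPM at most, and in 10 of 10 cells of U0126 set 4, up to 24.4 CPM. Sst had reads in no cell of either set 4. The 12 controls of sets 1 and 2 had 3 reads of these genes in all, and the 9 TPPB plus U0126 cells also 3. The 22 cells given TPPB alone had 128 reads in 7 cells, of which 112 were Pyy in 2 cells and 16 were Pcsk2.

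Ins2 and Iapp were among the 5 genes with all cells of U0126 set 3 below all 12 control cells, with Apaf1, Khdrbs1 and Sh3glb1 (0.0364% of tested genes). For Ins2, Iapp and Apaf1 the lowest control cell had only 1.05, 1.02 and 1.02 CPM, near the floor. Sh3glb1, which encodes endophilin B1, had 100 to 285 CPM in the control cells and 14.7 to 99.1 in U0126 set 3. In the other direction, Ddah1, an enzyme that degrades asymmetric dimethylarginine, had 12.9 to 175 CPM in the control cells and 191 to 559 in U0126 set 3. Tspan7, a tetraspanin, had 0.831 to 125 CPM in the control cells and 138 to 209 in U0126 set 3. In U0126 set 4 these 3 genes overlapped the controls, with medians of 145, 92.7 and 45.5 CPM. They overlapped U0126 set 3 in the 12 control cells of sets 1 and 2 as well, where Sh3glb1 ran from 39.1 to 391 CPM, Ddah1 from 28.7 to 421 and Tspan7 from 0 to 141.

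Cells 2 and 3 of TPPB plus U0126 in set 3 correlated at 0.985, the highest value of all 2415 pairs of EpCAM+ explant cells.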
